A study of Mus musculus with 72 samples.

Results

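The livers of male mice that were germ free (GF), and so carried no microbes, were compared with the livers of mice with a conventional microbiota kept under specific pathogen-free (SPF) conditions, with the liver clock intact in both. Both groups carried the genotype Bmal1 fl/fl, called WT here, so the loxP-flanked allele of the clock gene Bmal1 was shared by cases and controls and no Cre was present. Mice of strain C57BL/6 (C57BL/6J in the study's methods) were adult, housed singly under 12:12 light/dark cycles and fed autoclaved chow, and livers were taken at 6 zeitgeber times (ZT), every 4 h from ZT2, which is 2 h after lights came on, to ZT22, with 3 libraries per group and time. All libraries titled WT GF or WT SPF were members, except 1 of each that is described below, which left 34 of the 72 libraries of the series, 17 GF WT and 17 SPF WT. The other groups of the series were LKO mice, which also carried a Cre driven by the Albumin promoter that removes Bmal1 in hepatocytes, and they enter only 1 comparison at the end. The GF colony was rederived into flexible film isolators while the SPF mice were bred in a vivarium, so microbial status cannot be told apart from colony and housing.

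The liver receives blood straight from the gut through the portal vein, and with it bacterial products and bile acids that bacteria have modified. Gut bacteria remove taurine and glycine from bile acids and convert primary into secondary bile acids. Bile acids act on nuclear receptors of the hepatocyte, among them FXR, which restrains bile acid synthesis, and PXR, which with CAR drives genes of drug metabolism such as Cyp3a11. Cholesterol is the starting material of bile acids, and its synthesis is set by the transcription factor SREBP2, which is cleaved and becomes active when sterols are scarce.

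A pair of libraries went against their labels. Over the 24 genes with the largest changes named below, the library labelled SPF WT ZT14 replicate 3 fell within the range of the other SPF WT libraries for 10 genes and within the GF WT range for 19, while the library labelled GF WT ZT6 replicate 3 fell within the SPF WT range for 20 and the GF WT range for 5. Both were left out, so SPF WT at ZT14 and GF WT at ZT6 had 2 libraries. This choice rests on expression and favours a clear difference between groups. With all 36 WT libraries 4823 genes were called in place of 5002, 4386 of them in common and in the same direction. The counts per library ran from 18337729 to 20832529 in SPF WT (median 19249741) and from 18014398 to 20048880 in GF WT (median 18938062), and the ranges of depth overlapped. Library composition differed more. Genes with at least 10 counts numbered 12708 to 13648 in SPF WT and 12244 to 12764 in GF WT, noncoding genes took 0.382% to 0.598% of counts in SPF WT and 0.370% to 0.502% in GF WT, and the nuclear RNA Malat1 stood at 155 to 511 counts per 1000000 (CPM) in SPF WT and 62.5 to 376 in GF WT. The part of these differences in the results was not tested beyond a fit with the noncoding share as a covariate. Hepatocyte markers marked the tissue in both groups, with a summed level of 97738 to 147199 CPM for 12 genes in SPF WT and 129465 to 189458 CPM in GF WT. These markers were themselves 9 higher and 0 lower in GF WT, with a median log2 fold change of 0.38, or 6 and 1 under library totals, 5 and 0 with that covariate and 4 and 1 with cyclic loess scaling.

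Absence of microbes went with many small changes and few large ones. Of 12783 genes tested with ZT as a factor, 2315 (18.1%) were called higher in GF WT and 2687 (21%) lower by the quasi-likelihood test of edgeR with adjusted p under 0.05, and 6108 had an unadjusted p under 0.05. The median size of a called change was 0.30 on the log2 scale, and 243 called genes changed by at least 1 on that scale, 63 of them higher and 180 lower. These shares over all genes are the background for every gene list below, and a list near them does not stand apart from all genes. Between scalings the split of higher and lower calls moved. It was 46.3% higher with TMM factors, 50.4% with the factors of DESeq2, and 8.70% (610 higher, 6399 lower) with library totals alone, under which the median gene stood at −0.19 in place of −0.02, so fold changes are to be read against the median gene, and counts under library totals are added for the lists. Fold changes also followed expression level, with a median of −0.24 for genes under a mean log2 CPM of 1 and 0.15 for genes over 7. Calls did so too. Of 1016 genes over 7, 537 were called higher and 46 lower, and of 2063 genes under 1, 103 were higher and 608 lower. The background of a list of abundant or of scarce genes therefore differs from that of all genes, and lists were not matched for level. With the noncoding share of each library as a covariate 1411 genes were called, 755 higher and 656 lower.

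**Figure D1:**
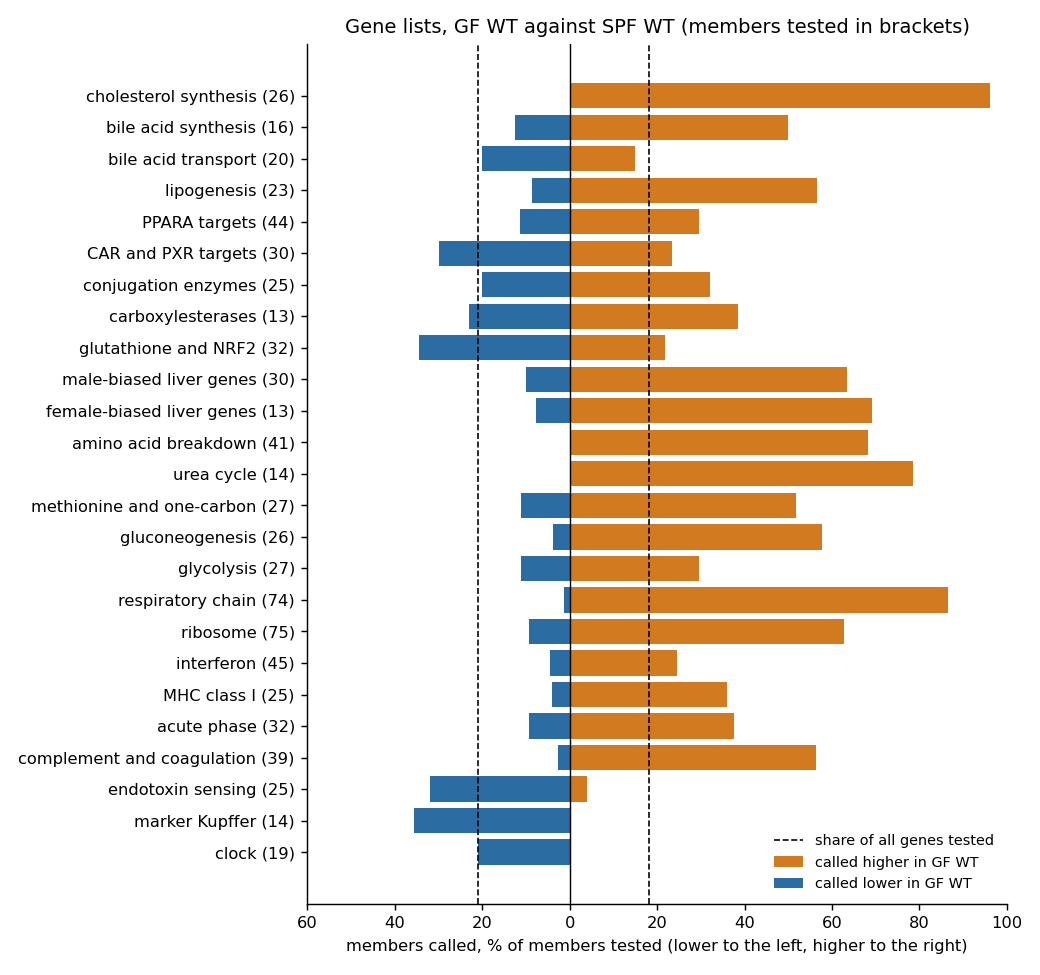
Bars give, for 25 gene lists, the percentage of tested members called higher in GF WT (right) and called lower (left), with the number of members tested in brackets and the shares of all 12783 genes as dashed lines (18.1% and 21%). Cholesterol synthesis (25 of 26 higher) and the respiratory chain (64 of 74 higher) stand furthest to the right. The Kupffer markers (5 of 14 lower) and the clock (4 of 19 lower) have bars on the left only. Endotoxin sensing (8 of 25 lower, 1 higher) and glutathione and NRF2 (11 of 32 lower, 7 higher) also reach further to the left than to the right.

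Where the mean log2 CPM was 1 or more, and without pseudogenes and Gm or Rik symbols, the 12 largest called increases and 12 largest decreases of the same sign at all 6 ZT were headed by Moxd1 and Cyp3a11. Cyp3a11 (chromosome 5, 145854426 to 145879964, GRCm38), the main drug-oxidizing cytochrome P450 of the mouse liver, ranged from 4039 to 7154 CPM in SPF WT (median 5135) and from 489 to 1075 in GF WT (median 564). The groups did not overlap, and the log2 fold change was −3.02 ± 0.10 (SE, adjusted p = 1.11e-20, edgeR). In the libraries left out Cyp3a11 stood at 356 CPM in the library labelled SPF WT and 5782 in that labelled GF WT, and with them in the fit the change was −2.64. Moxd1 (chromosome 10, 24223517 to 24302790), a copper-dependent monooxygenase, ranged from 0 to 3.93 CPM in SPF WT (median 0.157) and from 2.10 to 129 in GF WT (median 40.4). The ranges overlapped at their ends, and the change was 6.67 ± 0.53 (adjusted p = 7.35e-11), or 5.16 with all 36 libraries. At the low levels of SPF WT a fitted fold depends on the prior count, and Moxd1 could pass the filter on low counts through GF WT alone. The others on the higher side were 3 cytochrome P450 genes and 4 of cholesterol synthesis, described below, with Tff3, Gpx6, Nipal1 and Cav1. On the lower side, apart from Cyp3a11, Cyp3a59, Apoa4 and Csad, they were genes with few reads counted, with at most 19.6 CPM in any library kept and changes from −1.25 to −1.68, namely the lincRNA Gdap10, the imprinted Peg3, Rps6ka1, Pde4a, Mapk15, the ferritin light chain gene Ftl1, Lhx6 and Cyp2j9. Reads of Ftl1 that also align to copies were dropped in the counting, so its level and its change are uncertain. Of the 24, Nipal1 and Gdap10 were not called with the noncoding covariate.

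Of all genes tested, 28 (0.219%) had no overlap between the 17 and the 17 libraries, 16 higher and 12 lower in GF WT. Higher among them were the glutathione peroxidase Gpx6, with 5.17 to 19.6 CPM in GF WT against 0.669 to 2.76 in SPF WT, the caveolar coat protein Cav1, with 10.4 to 30.3 CPM against 3.58 to 7.71, and Aldoc, an aldolase, with 18.5 to 29.9 CPM against 6.30 to 15.9. Lower were Cyp3a11 and its relatives Cyp3a25 and Cyp3a59, the carboxylesterase Ces2a, the intestinal and hepatic apolipoprotein Apoa4, with 5.65 to 13.6 CPM against 16.7 to 45, and the kinase Rps6ka1, with 1.07 to 5.20 CPM against 6.38 to 16.3. Aldoc, Cyp3a25 and Ces2a are outside those 24. With all 36 libraries only Eif5b, a translation initiation factor, did not overlap.

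**Figure D2:**
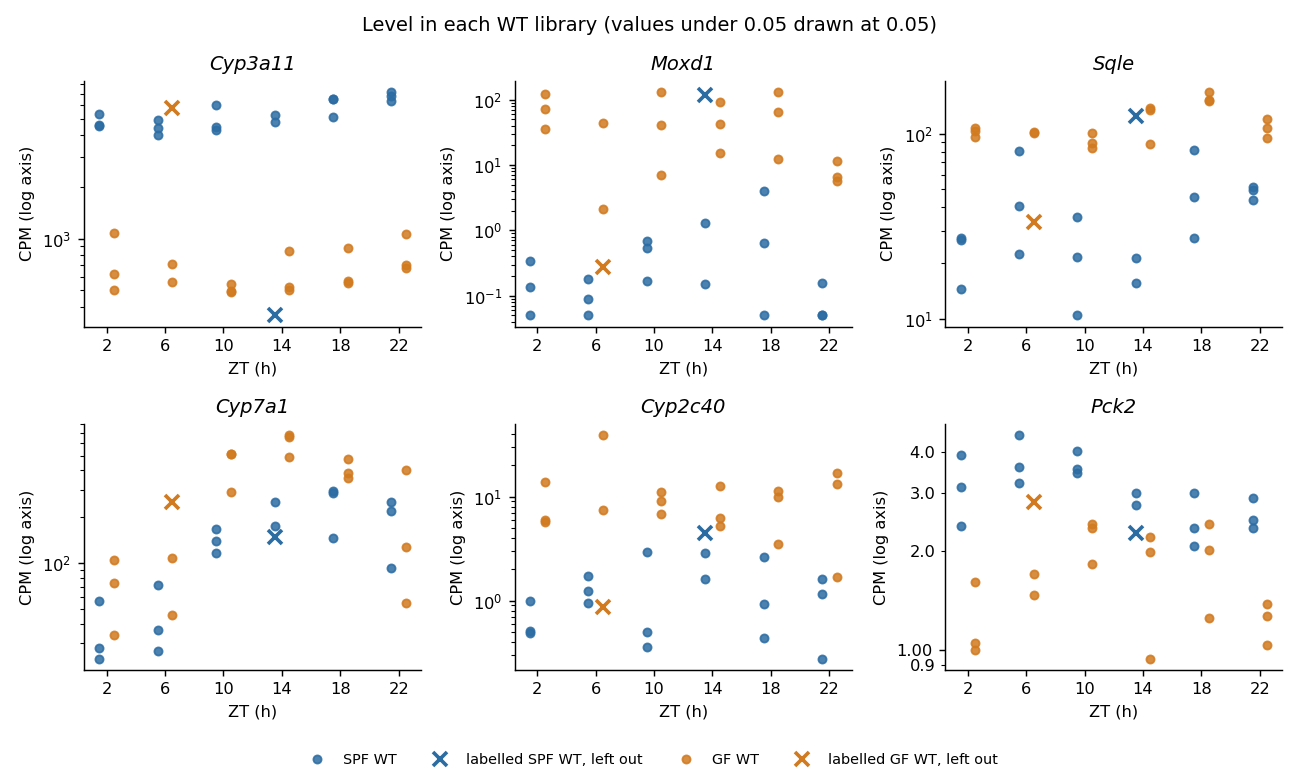
Each point is 1 WT library, with ZT in hours on the horizontal axis and CPM on a log axis, blue for SPF WT and orange for GF WT, and crosses mark the 2 libraries left out. Cyp3a11 is lower and Sqle higher in the GF WT libraries kept, without overlap, and the crosses lie with the other group for both genes.

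Genes of cholesterol synthesis rose together. Of 26 genes tested for synthesis, uptake and their control, 25 were called higher in GF WT and 0 lower, with a median log2 fold change of 1.09, against −0.02 over all genes, and 24 were higher under library totals. With the noncoding share as a covariate 20 were called higher. The summed level ran from 1971 to 4741 CPM in SPF WT (median 3006) and from 4240 to 7214 in GF WT (median 5428), so the sums of the groups overlapped. Squalene epoxidase, encoded by Sqle (chromosome 15, 59315077 to 59331192), which makes the first oxygenation of the sterol branch, ranged from 10.5 to 81.1 CPM in SPF WT (median 27.4) and from 83.3 to 167 in GF WT (median 104). Its log2 fold change was 1.76 ± 0.18 (adjusted p = 4.76e-09), and 1.46 with all 36 libraries. Msmo1, the sterol C4 methyl oxidase, ranged from 68 to 317 CPM and from 340 to 665 CPM, again without overlap, with a change of 1.72 ± 0.16 (adjusted p = 1.16e-09).

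Upstream in the mevalonate pathway, Hmgcs1, which makes the HMG-CoA that enters it, had 56.8 to 423 CPM in SPF WT (median 193) and 220 to 933 in GF WT (median 593), a change of 1.65 ± 0.16 (adjusted p = 1.78e-09). Mvd, the mevalonate diphosphate decarboxylase, had 2.34 to 30.5 CPM in SPF WT and 16 to 68 in GF WT, a change of 1.65 ± 0.18. The ranges of both genes overlapped over the day and parted at single times. At ZT2, for example, Hmgcs1 ran from 160 to 223 CPM in 3 SPF WT libraries and from 755 to 933 in 3 GF WT libraries, and at ZT14 from 60.3 to 77.4 CPM in 2 and from 220 to 450 in 3. Srebf2, the gene of SREBP2 itself, changed by 0.43 and Scap, which escorts it, by 0.28, both called. The median change of the list was positive at each ZT, between 0.65 at ZT6 and 1.47 at ZT2.

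**Figure D3:**
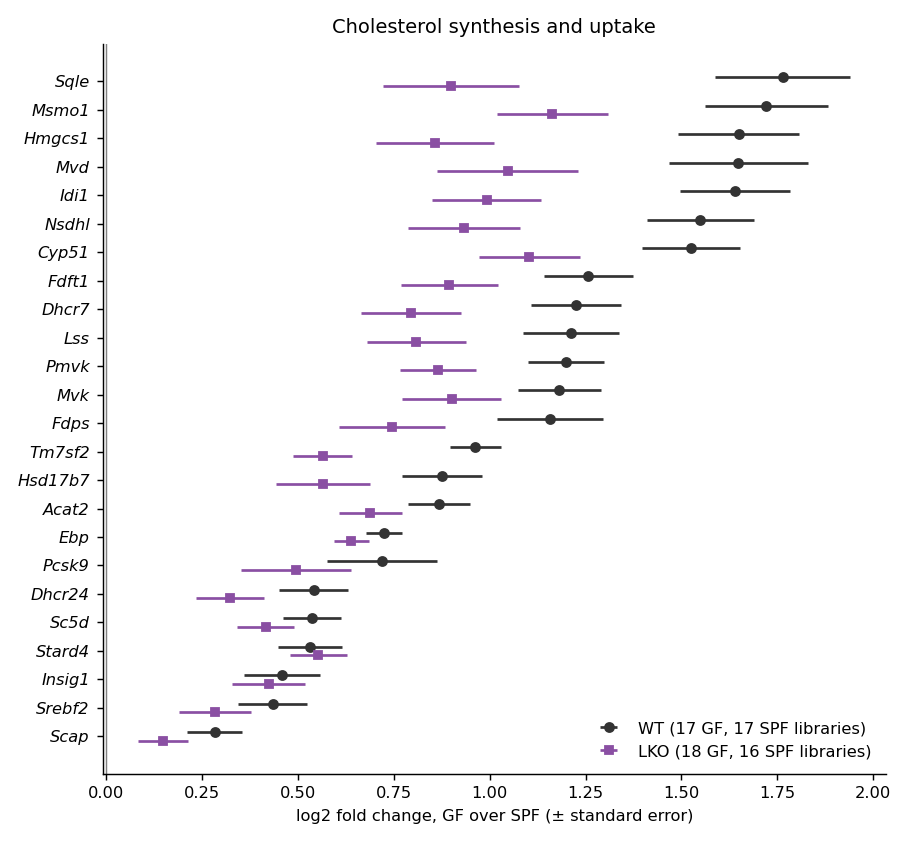
Points give the log2 fold change, GF over SPF, with its standard error for 24 of the 26 genes of cholesterol synthesis and uptake, as circles in WT and squares in LKO. All 24 circles lie right of 0, from 0.28 for Scap to 1.76 for Sqle, and the squares of most genes lie nearer to 0.

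The 250 bases before the transcript start were searched for 2 motifs tied to sterol control, both chosen after the changes were seen: the sterol element in the form CACNCCAC (reverse GTGGNGTG) and the CCAAT box (reverse ATTGG) that binds NF-Y, a partner of SREBP2. Of the 18 cholesterol genes with an entry in the RefSeq promoter table (GRCm38.p6), 3 held the sterol element (Acat2, Hmgcs1 and Insig1) and 16 a CCAAT box, where 6.05% and 37.5% of 27025 genes did. Neither was particular to that list. The sterol element was in 3 of 16 clock genes and 3 of 11 of the largest decreases, and the CCAAT box in 11 of 16 and 7 of 11. The upstream windows of 3 of the genes with the largest increases are shown with any match to either motif in capitals. Hmgcs1 lies on the + strand at chr13:119690101-119690350 and holds 1 sterol element and 3 CCAAT boxes, Msmo1 on the − strand at chr8:64733579-64733828 holds 3 CCAAT boxes, and Mvd on the − strand at chr8:122443423-122443672 holds 2. Each is written in the direction of its gene.
Hmgcs1: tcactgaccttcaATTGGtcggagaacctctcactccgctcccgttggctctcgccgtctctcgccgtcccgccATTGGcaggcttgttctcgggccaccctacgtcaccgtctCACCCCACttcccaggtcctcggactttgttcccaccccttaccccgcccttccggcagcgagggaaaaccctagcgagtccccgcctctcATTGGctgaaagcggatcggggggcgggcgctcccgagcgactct
Msmo1: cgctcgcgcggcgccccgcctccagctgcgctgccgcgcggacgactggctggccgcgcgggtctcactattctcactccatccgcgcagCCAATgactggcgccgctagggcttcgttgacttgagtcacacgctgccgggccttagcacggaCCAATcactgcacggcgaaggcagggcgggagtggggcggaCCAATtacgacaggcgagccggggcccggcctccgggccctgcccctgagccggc
Mvd: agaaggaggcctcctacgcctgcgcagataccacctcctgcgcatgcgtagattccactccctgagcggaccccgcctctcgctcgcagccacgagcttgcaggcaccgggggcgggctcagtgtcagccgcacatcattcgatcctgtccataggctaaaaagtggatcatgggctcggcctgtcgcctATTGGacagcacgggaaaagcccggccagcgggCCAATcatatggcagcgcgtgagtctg
A match describes letters in a window and not a bound site.

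Genes of bile acid synthesis moved in both directions. Of 16 synthesis genes tested of 18 listed 8 were called higher and 2 lower, with 5 and 4 under library totals, where the median of 0.17 became 0.01. Several genes of the main (neutral) route were higher. Cyp7a1 (chromosome 4, 6265612 to 6275633), the rate-limiting 7α-hydroxylase, ranged from 23.8 to 293 CPM in SPF WT (median 138) and from 33.9 to 677 in GF WT (median 358), a change of 0.94 ± 0.23 (adjusted p = 0.00155). Its level moved strongly over the day in both groups, and at ZT14 the groups parted, at 174 and 249 CPM in 2 SPF WT libraries and 491 to 677 in 3 GF WT libraries. At ZT22 they overlapped, with 92.8 to 248 CPM and 54.5 to 401 CPM. Cyp8b1, which makes the 12α-hydroxyl group of cholic acid, changed by 0.86 ± 0.17 (adjusted p = 0.000142), Cyp2c70, which makes the muricholic acids of the mouse, by 0.70 ± 0.09, and Cyp7b1 of the acidic route by 0.46 ± 0.11. Lower were Cyp39a1, which hydroxylates 24-hydroxycholesterol, at 19.2 to 59.96 CPM in SPF WT and 5.81 to 43.1 in GF WT (−1.22 ± 0.16), and Cyp46a1, which makes that oxysterol, at levels near 1 CPM (−1.12 ± 0.20).

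Among 20 genes of bile acid transport and sensing tested of 23 listed 3 were called higher and 4 lower, or 1 and 9 under library totals. Over all genes 18.1% were higher and 21% lower. The basolateral uptake carrier Slc10a1 (NTCP) ran from 463 to 688 CPM in SPF WT and from 625 to 912 in GF WT, a change of 0.37 ± 0.05. The efflux pumps Abcc3 and Abcb1a changed by −0.32 ± 0.08 and −0.69 ± 0.17, and Osgin1 by −0.71 ± 0.21, all called lower. The call of Osgin1 was lost with the noncoding covariate. The FXR target Nr0b2 (SHP) was not called, at −0.25, and neither were the export pump Abcb11 at 0.07 nor FXR itself (Nr1h4) at 0.04.

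Genes of fatty acid synthesis were mostly higher or not called, while their regulators included genes that fell. Of 23 lipogenic genes tested of 24 listed 13 were higher and 2 lower, with a median of 0.26, and 9 and 4 under library totals, 4 and 3 with the noncoding covariate. Acss2, which makes acetyl-CoA from acetate, ranged from 84.9 to 241 CPM in SPF WT and 214 to 569 in GF WT, a change of 1.33 ± 0.12 (adjusted p = 2.73e-10). Fasn, the fatty acid synthase, and the desaturase Scd1 were not called, at −0.02 and 0.18. The desaturase Fads2 changed by 0.62 ± 0.08 and the carboxylase Acacb by 0.78 ± 0.16. With the noncoding covariate Acacb was not called. The transcription factor genes Mlxipl (ChREBP) and Srebf1 were the 2 called lower, at −0.91 ± 0.11 (adjusted p = 1.93e-07) and −0.62 ± 0.20 (adjusted p = 0.0164), and with all 36 libraries Srebf1 was not called. Under library totals targets of PPARα, which drives fat oxidation, numbered 3 higher and 11 lower of 44, with a median of −0.05. In the main fit they numbered 13 and 5, beside 18.1% and 21% of all genes, with a median of 0.11. Among those higher, the ω-hydroxylases Cyp4a10 and Cyp4a14 changed by 0.61 ± 0.12 and 0.60 ± 0.19, and Cyp4a14 was not called under library totals, without the ZT term or with cyclic loess scaling. Ppara, the gene of PPARα itself, was among the 5 lower, and changed by −0.29 with all 36 libraries (adjusted p = 0.0364, edgeR). With the noncoding covariate 8 of the list were higher and 0 lower. Of 22 apolipoprotein and lipase genes 13 were higher and 2 lower, and 5 and 5 under library totals. Apoa1, the protein of HDL, ran from 6402 to 9607 CPM in SPF WT and from 9287 to 14060 in GF WT (0.54 ± 0.06), while Apoa4 moved the other way at −1.40 ± 0.12 (adjusted p = 1.41e-10).

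Drug-metabolizing enzymes moved in both directions. Of 30 targets of CAR and PXR tested of 37 listed 7 were higher and 9 lower, with a median of 0.00, and 4 and 14 under library totals. Over all genes 18.1% were higher and 21% lower. The Cyp3a genes differed among themselves. Cyp3a11 fell by 3.02, Cyp3a59 by 1.40 (32.3 to 61.8 CPM against 12.3 to 24.2) and Cyp3a25 by 0.84 (577 to 887 CPM against 318 to 553), while Cyp3a13 was not called at 0.00. Reads that align to several places were dropped in the counting, so values of these near-identical copies are uncertain. The classical CAR target Cyp2b10 ran from 7.15 to 78.7 CPM in SPF WT and 2.84 to 42.4 in GF WT (−1.15 ± 0.21, adjusted p = 9.52e-05). Of the 7 members called higher, Cyp2c39, Aldh1a7 and Cyp2c54 changed by 0.63, 0.50 and 0.45 with all 36 libraries. The largest rise in the list was 1.83. The gene of CAR, Nr1i3, was lower at −0.31, and that of PXR, Nr1i2, was not called at −0.02. AHR, a receptor for indoles and other ligands, had 2 of 9 targets tested (11 listed) higher and 2 lower, or 1 and 5 under library totals. With 1 library left out between 1 (for example without SPF WT ZT2 replicate 1) and 3 (without SPF WT ZT2 replicate 3) were lower, and 2 in 10 of 34 cases. Its target Cyp1a2 rose by 0.41 ± 0.07, from a median of 515 to 683 CPM. The other member called higher was Ahr, the gene of the receptor, and those called lower were Ugt1a6a and Cyp1a1. With all 36 libraries these changed by 0.34, −0.91 and −0.30, and Cyp1a1 was not called there. The median of the AHR list was −0.14.

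Conjugating enzymes and glutathione genes were also mixed. Of 25 conjugation genes tested of 29 listed 8 were higher and 5 lower (5 and 9 under library totals), beside 18.1% and 21% of all genes. The estrogen sulfotransferase Sult1e1 rose by 3.02 ± 0.32, from 0.0446 to 0.704 CPM up to 0.681 to 5.96 CPM, and the phenol sulfotransferase Sult1a1 rose by 0.77 ± 0.08, from a median of 324 to 514 CPM. At its low level in SPF WT, Sult1e1 could pass the filter on low counts through the GF WT libraries alone. The glucuronosyltransferases Ugt1a6a and Ugt1a9 fell by 0.91 and 0.75, with the reservations that the Ugt1a transcripts share their last exons and that neither was called with the noncoding covariate. In the glutathione and NRF2 list, with 32 tested of 34, 7 were higher and 11 lower (4 and 17 under library totals). The mu-class transferases Gstm2, Gstm6 and Gstm7 rose by 0.76, 0.62 and 0.69, and the pi-class Gstp1 fell by 0.62, with Gclc, the rate-limiting enzyme of glutathione synthesis, at −0.47 ± 0.08. Of 13 carboxylesterases tested of 15 listed 5 were higher, led by Ces1g at 0.48 ± 0.07, and 3 lower, led by Ces2a at −0.55 ± 0.05, and the split was 3 and 5 under library totals.

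Genes with sex-biased expression in the liver were among the largest changes, and of both kinds more were called higher than lower in these males. Of 30 male-biased genes tested of 32 listed 19 were higher and 3 lower (median 0.41), with 16 and 6 under library totals, and of 13 female-biased genes tested of 26 listed 9 were higher and 1 lower (median 0.61), with 8 and 2. The filter on low counts could be met by the libraries of 1 group, so a gene low in SPF WT could enter through GF WT alone. Without the filter 9 of 26 female-biased genes were higher and 4 lower (median 0.45). The female-biased Cyp2c40 (chromosome 19, 39767071 to 39812814) ranged from 0.276 to 2.96 CPM in SPF WT and from 1.68 to 38.7 in GF WT, a change of 3.09 ± 0.33 (adjusted p = 1.45e-08). Its neighbour Cyp2c69 changed by 3.04 ± 0.36 and Cyp2b9 by 1.83 ± 0.44, and the pair Cyp2c40 and Cyp2c69 is near-identical in sequence and so uncertain. The 1 called lower was Ntrk2, a neurotrophin receptor of low level, at −2.02 ± 0.33. It passed the filter on low counts in 19 of the 34 fits with 1 library left out, so that 0 (for example without SPF WT ZT2 replicate 1) to 2 (without GF WT ZT2 replicate 1) of the list were lower there. On the male side the largest rise was that of Moxd1 (6.67), a gene at low levels in SPF WT. Serpina1e, an α1-antitrypsin paralog, ran from 1350 to 5553 CPM in SPF WT and 4385 to 10220 in GF WT (1.06 ± 0.16), and the urinary protein genes Mup17 and Mup21 rose by 0.90 and 0.88, with the same reservation on copies. Pulsatile growth hormone keeps these genes apart between the sexes. In the growth hormone list of 16, 8 were higher and 1 lower, with 4 and 2 under library totals. The prolactin receptor gene Prlr rose by 0.61 ± 0.10, and Igfbp2, a binding protein of IGFs, ran from 235 to 445 CPM in SPF WT and 401 to 1381 in GF WT (0.92 ± 0.13). Igfbp1, which fasting and low insulin raise, spread widely, from 8.28 to 564 CPM and from 37.5 to 559 CPM, with a change of 1.26 ± 0.41 (adjusted p = 0.0158). Mup17 and Igfbp1 were not called with the noncoding covariate, nor Igfbp1 without the ZT term.

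Many genes of amino acid and nitrogen metabolism were higher, by small amounts, as were the hepatocyte markers (9 of 12, median 0.38), whose part in these and the following changes was not tested. Of 41 genes of amino acid breakdown 28 were higher and 0 lower (median 0.24), with 13 and 3 under library totals. Acmsd, which steers tryptophan away from NAD synthesis, ranged from 14.8 to 57.9 CPM in SPF WT (median 32.2) and from 27.7 to 92.1 in GF WT (median 68.5), a change of 1.04 ± 0.13 (adjusted p = 1.61e-07). Got1, the cytosolic aspartate aminotransferase, rose by 0.97 ± 0.14. Of 14 urea cycle genes 11 were higher and 0 lower (median 0.30), with 6 and 0 under library totals and 3 and 1 with cyclic loess scaling (median 0.10). Cps1, the entry enzyme of the cycle, ran from 3130 to 6308 CPM in SPF WT and from 4114 to 7108 in GF WT (0.43 ± 0.06), and Ass1 from 460 to 746 and from 568 to 1020 (0.44 ± 0.06). Both pairs of ranges overlapped, and Cps1 was not called with cyclic loess scaling.

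In methionine and folate metabolism 14 of 27 genes tested (29 listed) were higher and 3 lower, with 11 and 8 under library totals. Bhmt, which remethylates homocysteine with betaine, had 236 to 1172 CPM in SPF WT (median 508) and 632 to 1965 in GF WT (median 1217), a change of 1.17 ± 0.12 (adjusted p = 1.5e-08). Dmgdh, the next enzyme of betaine breakdown, had 384 to 602 CPM and 652 to 1004 CPM, without overlap (0.72 ± 0.05). Cth, which makes cysteine, rose by 0.62 ± 0.11. Csad, which turns a cysteine product towards taurine, the amino acid that mouse bile acids are joined to, fell by 1.31 ± 0.15, from 61.9 to 436 CPM down to 38.3 to 143 CPM (adjusted p = 4.68e-08).

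Gluconeogenesis genes were higher in 15 cases and lower in 1 of 26, with a median of 0.20, but 4 and 5 under library totals and 4 and 1 with the noncoding covariate. The cytosolic carboxykinase Pck1 was not called (0.41 ± 0.24, adjusted p = 0.175), with 440 to 3471 CPM in SPF WT and 591 to 4889 in GF WT, and these ranges covered each other over the day. The glucose-6-phosphatase G6pc rose by 0.42 ± 0.16 (adjusted p = 0.0338), a call lost under library totals, without the ZT term, with the noncoding covariate, with cyclic loess scaling and when any of 9 libraries was left out. The mitochondrial carboxykinase Pck2 (chromosome 14, 55540266 to 55551242) was the 1 gene called lower, at 2.07 to 4.5 CPM in SPF WT and 0.944 to 2.42 in GF WT (−0.91 ± 0.12, adjusted p = 7e-07). Of 27 glycolysis genes 8 were higher and 3 lower, beside 18.1% and 21% of all genes. Under library totals they were 3 and 12, and the rise of Aldoc (1.17 ± 0.10) was the largest among the 27. In the insulin and FOXO list 7 of 21 were higher and 0 lower, and 3 and 5 under library totals, 2 and 0 without the ZT term and 0 and 0 with the noncoding covariate. Irs2, an insulin receptor substrate, rose by 0.91 ± 0.21, from a median of 16.9 to 38.7 CPM, and was not called with the noncoding covariate.

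Mitochondrial and ribosomal protein genes rose in high proportion by small amounts. Of 74 respiratory chain genes tested of 75 listed 64 were higher and 1 lower (median 0.28), with 30 and 3 under library totals and 26 and 0 with the noncoding covariate. Cox6b1, a subunit of complex IV, ran from 169 to 258 CPM in SPF WT and from 209 to 348 in GF WT (0.44 ± 0.06). The 1 lower gene, Atp5l, stood at 0.531 to 4.65 CPM over both groups, low for its family, and its reads may be split with copies. Of 75 ribosomal genes tested of 78 listed 47 were higher and 7 lower (median 0.26), with 20 and 11 under library totals and 14 and 0 with the noncoding covariate. Rplp1 rose by 0.60 ± 0.08, and the genes lower by most, Rpl9 and Rps10, stood under 4 CPM, where copies and dropped reads make values uncertain. Neither these nor Atp5l were called with the noncoding covariate. The median of both lists was near 0 at ZT10, at −0.01 for the respiratory chain and −0.03 for the ribosome, and 0.46 and 0.47 at ZT2, and a difference between ZT was not called for any member. Of 26 ER stress genes 13 were higher and 0 lower, against 1 and 1 under library totals and 0 with the noncoding covariate.

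Immune genes moved in both directions. The largest change among them was in Igha, the constant region of IgA, the antibody of mucosal plasma cells. It ran from 0.789 to 5.19 CPM in SPF WT (median 1.38) and from 0 to 0.879 in GF WT (median 0.0537), a change of −3.84 ± 0.37 (adjusted p = 2.58e-09). At these levels Igha could pass the filter on low counts through SPF WT alone. Ighm, the constant region of IgM, rose by 0.97 ± 0.23 and the T helper marker Cd4 by 0.83 ± 0.18. Of 9 lymphocyte markers tested of 24 listed, these 2 were the only ones called higher and Igha the 1 called lower. The other 6 were not called, the median was −0.14, and 2 were higher and 2 lower under library totals. In bulk RNA fewer cells of a type and less RNA per cell cannot be told apart. Among 25 genes that sense bacterial products, tested of 36 listed, 1 was higher and 8 lower (median −0.22), with 0 and 18 under library totals and 0 and 2 with the noncoding covariate. With 1 library left out the number lower ran from 4 (without SPF WT ZT18 replicate 1) to 11 (without SPF WT ZT6 replicate 1), and with the replicate block it was 3. Nod1, a receptor for peptidoglycan fragments, fell by 0.43 ± 0.08, Tlr5, the flagellin receptor, by 0.42 ± 0.14 and Tlr8 by 0.63 ± 0.19, while Pglyrp2, a hepatic amidase that cleaves peptidoglycan, rose by 0.35 ± 0.07. With the noncoding covariate Tlr5, Tlr8, Pglyrp2 and Ighm were not called, and under library totals Pglyrp2 was not.

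Some markers of resident and recruited myeloid cells were also called lower. Of 14 Kupffer cell markers 0 were higher and 5 lower, with 0 and 11 under library totals and 0 and 1 with the noncoding covariate, and their summed level ran from 442 to 1029 CPM in SPF WT and from 363 to 620 in GF WT. Marco, a scavenger receptor for bacteria, ran from 1.68 to 22.6 CPM and from 0.644 to 8.0 CPM (−1.10 ± 0.35, adjusted p = 0.0136). Of 5 other myeloid markers tested of 15 listed 3 were lower and 0 higher (5 and 0 under library totals), at a summed level of 44.6 to 148 CPM and 38.2 to 83.6 CPM, namely Clec9a of dendritic cells (−1.07 ± 0.22), S100a8 of neutrophils (−1.0 ± 0.36) and Ccr2 of monocytes (−0.84 ± 0.25). Endothelial markers numbered 1 higher and 4 lower of 12 (1 and 10 under library totals), and stellate cell markers 0 and 3 of 14 (0 and 6). Over all genes 18.1% were higher and 21% lower, so the stellate share lower was near that background. None of Marco, Clec9a, S100a8 and Ccr2 was called with the noncoding covariate, and S100a8 was not called without GF WT ZT6 replicate 1 (−0.89, adjusted p = 0.0588) or replicate 2 (−0.88, adjusted p = 0.0592). The part of these cells in the changes of the sensing genes was not tested.

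Interferon-induced genes were 11 higher and 2 lower of 45 tested (46 listed), but 2 and 5 under library totals and 2 and 2 with all 36 libraries. The shares over all genes in the main fit were 18.1% and 21%. With 1 library left out the number higher ran from 7 (without SPF WT ZT2 replicate 3) to 18 (without SPF WT ZT6 replicate 3). Usp18, which restrains the interferon receptor, ran from 2.42 to 15.4 CPM in SPF WT and 6.06 to 21.6 in GF WT (0.91 ± 0.12), Ifit1 rose by 0.54 ± 0.13 and Oas2 fell by 1.09 ± 0.23. Of 25 class I antigen presentation genes tested of 27 listed 9 were higher and 1 lower (3 and 4 under library totals), with H2-T23 up by 0.48 ± 0.06 and H2-K1 by 0.35 ± 0.06, both members of a family with near-identical copies. Of 7 class II genes tested of 10 listed 0 were called by edgeR, 0 at an unadjusted p under 0.05, and 0 by DESeq2, with 1 lower under library totals. Acute phase genes were 12 higher and 3 lower of 32, or 3 and 6 under library totals. Saa3 fell by 1.21 ± 0.28, and the metal-binding protein gene Mt1 rose by 1.39 ± 0.44 with a wide spread, from 1.70 to 185 CPM in SPF WT and 7.66 to 147 in GF WT. With the noncoding covariate Oas2, H2-K1, Saa3 and Mt1 were not called, and with all 36 libraries Ifit1 was not.

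Complement and clotting factors, which hepatocytes secrete, were 22 higher and 1 lower of 39, or 7 and 5 under library totals and 9 and 0 with the noncoding covariate. F10, clotting factor X, had 341 to 490 CPM in SPF WT and 523 to 618 in GF WT, without overlap (0.50 ± 0.04, adjusted p = 4e-11), and F11 rose by 0.61 ± 0.05. Iron genes were split at 7 higher and 6 lower of 24 (3 and 11 under library totals), beside 18.1% and 21% of all genes. Hepcidin, the hormone that limits iron uptake, is encoded by Hamp, which fell by 0.65 ± 0.17, from 259 to 882 CPM down to 158 to 661 CPM, while its copy Hamp2 rose by 1.27 ± 0.18. Id1 and Smad7, targets of the BMP signal that also drives Hamp, fell by 0.81 ± 0.16 and 0.63 ± 0.13. The transferrin gene Trf rose by 0.50 ± 0.10. With the noncoding covariate Smad7 and Trf were not called, and with all 36 libraries Hamp was not.

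Few clock genes differed in their level over the day. Of 19 tested 0 were higher and 4 lower, beside 18.1% and 21% of all genes, so the share lower was near that background. Those lower were Per3 (−0.45 ± 0.14, adjusted p = 0.0131), Bhlhe40 (−0.40 ± 0.12), Per2 (−0.31 ± 0.11) and Nr1d2 (−0.27 ± 0.09). Without the ZT term or with the noncoding covariate 0 were called, and under library totals 9 were lower. With all 36 libraries the call of Per2 was lost (adjusted p = 0.152). Arntl, the symbol of Bmal1, was not called, with 0.592 to 38.3 CPM in SPF WT and 0.313 to 38.6 in GF WT. Values at ZT2 stood apart more than the daily level. There Dbp, an output transcription factor, had 2.90, 6.20 and 6.29 CPM in SPF WT and 0.832, 0.942 and 1.01 in GF WT, Tef had 58.5, 99.5 and 104 CPM and 37.3, 39.6 and 45.1, and Nr1d1, a repressor of Arntl, had 43.8, 46.3 and 47.9 CPM and 15.8, 20.9 and 27.2. Arntl had 10.4, 14.9 and 26.6 CPM in SPF WT and 24.9, 28.7 and 31.4 in GF WT, so only for Arntl among these did the groups overlap at that time. The difference of the effect between ZT was not called for any of the 4, with an adjusted p of 0.0963 for Dbp and Tef and 0.372 for Arntl.

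Grk5 was the only gene of 12783 (0.00782%) whose effect differed with ZT (adjusted p = 0.0427, 1084 genes at an unadjusted p under 0.05). Grk5 encodes a kinase of G protein-coupled receptors. At ZT2 it had 6.43, 7.61 and 10.0 CPM in SPF WT and 22.2, 25.7 and 34 in GF WT, and at ZT10 3.79, 4.44 and 4.47 in SPF WT and 2.53, 2.61 and 3.17 in GF WT. The order of the groups was thus opposite at the 2 times. DESeq2 called 85 genes in the same test, and with 1 library left out edgeR called 1 in 6 of 34 cases and between 0 and 18 in the others. In simulated data of this design, genes were changed by 1 on the log2 scale at ZT14 only, where SPF WT had 2 libraries. There edgeR recovered 24 of 100 with 0 others called, and DESeq2 44 of 100 with 18 others called. Changes limited to ZT14 would thus mostly be missed, and changes at other times were not simulated.

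**Figure D4:**
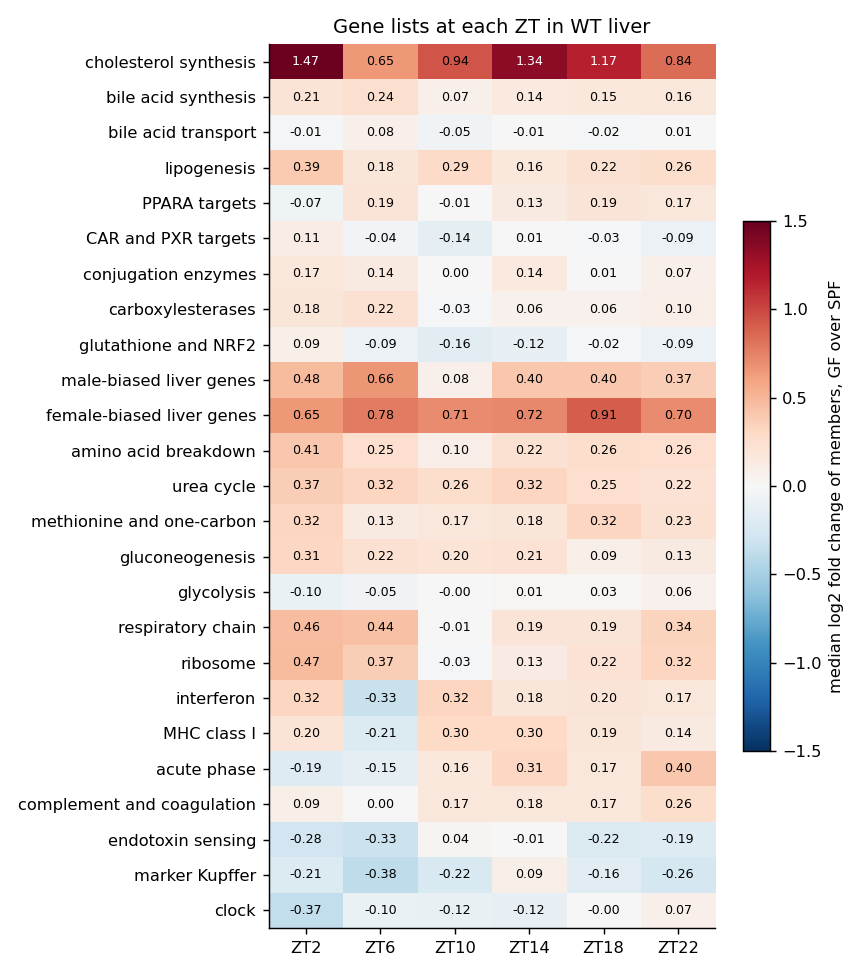
Each cell gives the median log2 fold change of a list's members, GF over SPF, at 1 ZT in WT liver, from blue (lower in GF) to red (higher). Cholesterol synthesis is positive throughout, from 0.65 at ZT6 to 1.47 at ZT2, while the respiratory chain and ribosome rows are near 0 at ZT10. Points at ZT6 and ZT14 rest on 2 libraries in 1 of the groups.

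Most changes had the same direction in mice without the liver clock. GF LKO (18 libraries) against SPF LKO (16, after 2 that went against their labels were left out) gave 2731 genes higher (21%) and 2777 lower (21.3%) of 13016. No library enters both comparisons, although all GF mice share 1 facility. Of the 2301 genes higher in GF WT that were tested in LKO, 1751 (76.1%) were also called higher, which is 64.1% of those higher in LKO, and 3 were called lower. Of 2653 lower genes 1809 (68.2%) were also called lower, 65.1% of those lower in LKO, and 6 were called higher. In the cholesterol list 24 of 26 genes were higher in LKO with a median of 0.72, beside 1.09 in WT, and a difference between genotypes was called for 1 of 26.

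The effect differed between genotypes for 77 of 13479 genes (0.571%), with 1076 at an unadjusted p under 0.05 and 109 called with all 72 libraries. Cyp3a11 led them. In LKO it ranged from 4806 to 8503 CPM in SPF and from 126 to 364 in GF, a change of −5.06, and the difference of the effects was −2.06 (adjusted p = 3.35e-15). Gpx6, higher in GF WT, was not called in LKO, where levels ran from 0.230 to 1.09 CPM in SPF and from 0.167 to 1.55 in GF (change 0.37, difference −2.11, adjusted p = 4.93e-07). Moxd1 rose in both, by 2.68 in LKO, where SPF mice already had 8.08 to 219 CPM and GF mice 136 to 594. Apoa4, lower in GF WT, changed by −0.27 in LKO (difference 1.11, adjusted p = 3.54e-06). Among the carboxylesterases a difference between genotypes was called for 5 of 13. Ces1e rose by 0.41 in WT and changed by −0.56 in LKO, and Ces1d changed by −0.26 in WT and −1.19 in LKO. The WT change of Ces1d was not called with all 36 libraries (−0.07, adjusted p = 0.708), without the ZT term, with the replicate block or with the noncoding covariate. Over the family 5 were higher and 3 lower in WT, and 2 higher and 7 lower in LKO. Igha was low in GF mice of this genotype too, with 1.09 to 4.58 CPM in SPF LKO and 0 to 0.436 in GF LKO.

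**Figure D5:**
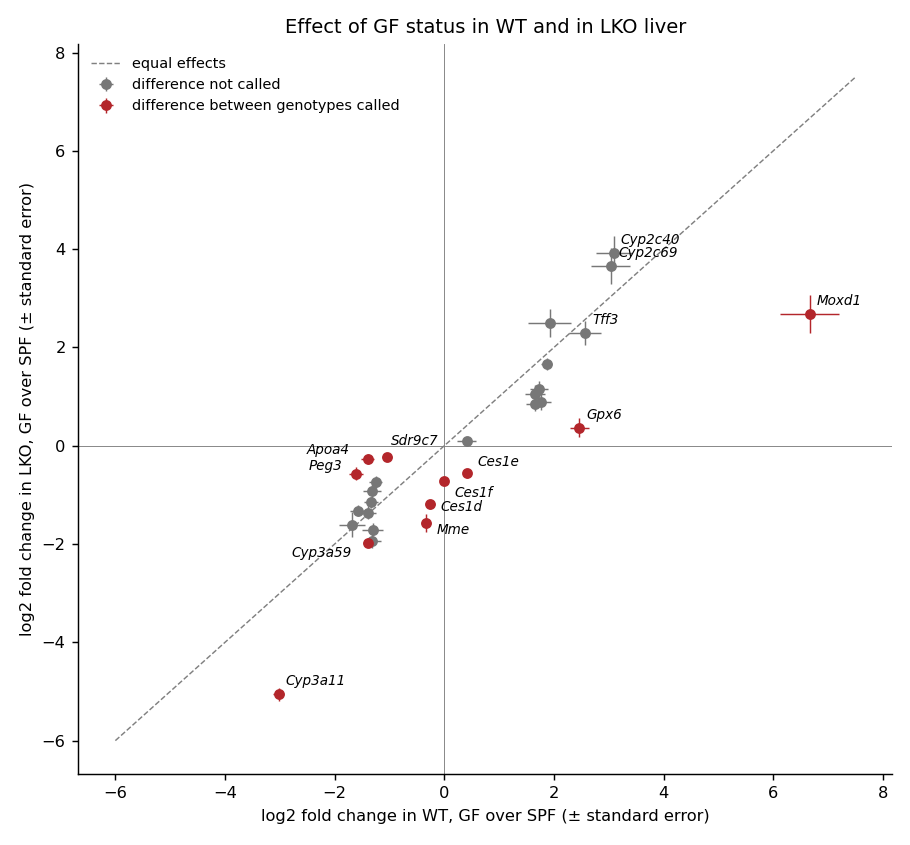
Each point is a gene named for its change in WT or for a difference between genotypes or ZT, with its log2 fold change, GF over SPF, in WT on the horizontal and in LKO on the vertical axis, bars for standard errors and a dashed line of equal effects. Red marks a called difference between genotypes. Cyp3a11 (−3.02 in WT, −5.06 in LKO) lies below the line, as do Moxd1 (6.67, 2.68) and Gpx6 (2.46, 0.37), and Apoa4 (−1.40, −0.27) lies above it.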

How the data were processed

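Liver RNA of male mice was sequenced as 72 stranded mRNA libraries with single-end reads, and 34 WT libraries were compared here. The authors deposited raw counts, with no normalization, of the reads that fell on each gene. Per the study's methods and the file header, the authors aligned reads with STAR 2.6.1b to mm10 (GRCm38) and counted them over exons by gene with featureCounts 2.0.0 and Ensembl release 97. Strand was not used, and multimapping reads and those on overlapping genes were dropped. Values of near-identical, overlapping and antisense genes are therefore uncertain. The table listed 55573 genes, of which 55480 matched the GENCODE vM21 annotation that gave coordinates, and 0 columns were left unused. Depth is given in the report.

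Groups, ZT and replicate numbers came from the labels. Counts were scaled by TMM factors, filtered by edgeR (minimum count 10, minimum total 15) and tested in edgeR 4.0.16 (R 4.3.3) by the quasi-likelihood test for GF against SPF with ZT as a factor, with Benjamini-Hochberg adjustment over all genes tested and a threshold of 0.05. Interactions of GF with ZT and with genotype were tested the same way. CPM are counts per 1000000 scaled by TMM. Livers were taken at death, but the labels number replicates without naming mice, so p-values measure the spread between these libraries. The replicate numbers were not taken as pairing (see the closing section), and no block was used in the main fit. Alternatives were all 36 libraries, other scalings, no filter, DESeq2 1.42.0, no ZT term, a replicate block, each library left out, and, chosen after seeing the data, the noncoding share of each library as a covariate and cyclic loess with limma 3.58.1.

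The members and gene lists were chosen with earlier results of these data known. Named genes were the 12 largest increases and 12 largest decreases of the same sign at all ZT among called genes (mean log2 CPM at least 1, without pseudogenes and Gm or Rik symbols), up to 4 called members per list and direction, the clock genes, genes the study names, and up to 8 with a called difference between ZT or genotypes. Abcb11, Nr0b2, Nr1h4, Cyp3a13, Nr1i2, Nr1i3, Scap, Srebf2, Fasn, Scd1 and Eif5b were named after their values were seen. With simulated counts the main test recovered 81 of 100 genes changed by 0.5 on the log2 scale and 96 of 100 changed by 1 (9 others called among 12709), and the test between genotypes 57 and 85 of 100 (3 others among 13387). Figures were drawn with matplotlib 3.10.9 in Python 3.11.15. Promoter windows came from RefSeq. Values of a few genes are not reported here.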

Additional observations from a re-analysis of the deposited data

Results flagged for a closer look

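The effect of GF status differed between WT and LKO mice, by a test of the difference itself, for 18 of the named genes, and values here are the log2 effect in LKO minus that in WT. It was most negative for Moxd1 (−4.0), Gpx6 (−2.11), Cyp3a11 (−2.06), Mme (−1.25) and Ugt1a9 (−1.11). Among the carboxylesterases it was −0.995 for Ces1e, −0.95 for Ces1d, −0.73 for Ces1f, −0.69 for Ces1g and −0.38 for Ces2a. Cyp3a59 (−0.59), Gstm2 (−0.54), Gys2 (−0.48) and F11 (−0.41) were also more negative in LKO. It was positive for Apoa4 (1.11), Cyp39a1 (1.03), Peg3 (1.02) and Sdr9c7 (0.79), where the change was less negative in LKO.

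Medians in SPF libraries also lay apart between genotypes for some of these genes, which was not tested. Moxd1 had a median of 58.1 CPM in SPF LKO and 0.157 in SPF WT, Sdr9c7 192 and 61.8, and Mme 6.15 and 79.9. Cyp39a1 had 16.2 CPM in SPF LKO and 37.4 in SPF WT.

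The effect of GF status on Grk5 differed between ZT (adjusted p = 0.0427, edgeR, 3 libraries per group and time, or 2 in GF WT at ZT6 and SPF WT at ZT14).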

How the results depend on the processing

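The counts of called genes rested most on scaling and on the noncoding covariate. With that covariate 1411 genes were called, 755 higher and 656 lower, of which 1309 (26.2% of 5002) were shared in direction, and with library totals alone 610 were higher and 6399 lower. Calls with a fold of at least 1 on the log2 scale numbered 938 without the filter and 152 with cyclic loess, beside 243. Genes that differed with ZT numbered 2 with the factors of DESeq2, 876 without the filter, 85 with DESeq2 and 4 with the replicate block, beside 1, and genes that differed between genotypes numbered 411 without the filter, beside 77. The cause of these moves was not tested. With 1 library left out, called genes ran from 4525 to 5204, those higher from 2091 to 2508, those lower from 2413 to 2772, those of at least 1 from 216 to 278, and those that differed with ZT from 0 to 18 (18 without SPF WT ZT2 replicate 2, 11 without GF WT ZT22 replicate 1). Of 118 called genes among those named, calls were kept for 81 with the noncoding covariate, 106 without the ZT term, 110 with cyclic loess, 111 with all 36 libraries, 114 with library totals, 116 with the block, and all 118 with the factors of DESeq2, DESeq2 itself or no filter, and leaving out 1 library ended the calls of G6pc, Nampt and S100a8. With cyclic loess scaling the split of higher and lower members turned for targets of PPARα (4 and 11), carboxylesterases (2 and 5), conjugation (5 and 8), iron (4 and 5) and heme genes (2 and 3).

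Same-numbered samples correlated between groups at −0.10 to 0.37 (median 0.02), over 0.1 in 6 of 16 pairs, so the numbers were not taken as pairing. The replicate block gave 4436 calls.

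Among values not called, the sign turned for Arntl (−0.01) at 0.18 with all 36 libraries, 0.0014 with the factors of DESeq2, 0.0073 without the filter, 0.18 without the ZT term, 0.061 with the block and 0.10 with the noncoding covariate (−0.096 to 0.051 with 1 library left out), for Dbp (−0.049) at 0.13 without the ZT term (−0.16 to 0.052), and for Ces1f (−0.0074) at 0.032, 0.0057, 0.014, 0.0057 with DESeq2 and 0.0017 with the block, the first 3 in the order of Arntl (−0.035 to 0.013).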

Other observations

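Several smaller gene lists are given, with counts under library totals in brackets, beside the background of 18.1% of genes higher and 21% lower. Of 15 genes of heme synthesis and breakdown 6 were higher and 2 lower in GF WT (1 and 6, so that the direction turned; 1 and 1 with the noncoding covariate), with Alas2, the erythroid form of the first synthesis enzyme, at 0.32 ± 0.06, and of 7 red cell genes tested of 10 listed 1 was higher and 2 lower (1 and 6). Cell cycle genes numbered 0 higher and 3 lower of 22 tested of 32 listed (0 and 11), and immediate early genes 0 higher and 3 lower of 19 tested of 22 listed (0 and 6), with Atf3, a stress-induced factor, at −0.92 ± 0.23. In NAD metabolism 4 of 17 genes were higher and 4 lower (3 and 10). Nnmt, which methylates nicotinamide, rose by 0.56 ± 0.18, and the nicotinamide salvage enzyme Nampt fell by 0.20 ± 0.07. Atf3, Nnmt and Nampt were not called with the noncoding covariate, and Nampt was not with all 36 libraries (−0.03). Cela1, the only exocrine pancreas marker of 14 listed that passed the filter, ran from 19 to 51.9 CPM in SPF WT and from 29.1 to 70.1 in GF WT (0.62 ± 0.12), while Amy2a5 was at 0 in every library.

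Both motifs here were searched after the changes were seen. Of the interferon-induced genes 19 of 31 with a RefSeq promoter entry held GAAANNGAAA (reverse TTTCNNTTTC) in the 250 bases before the start, where 3.46% of 27025 genes did. The E-box CACGTG (the same on both strands) lay in the windows of 5 of 16 clock genes and 5 of 18 of the cholesterol list, beside 6.86% of all genes. A match describes letters, not binding.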
